A study of Mus musculus with 6 samples.

Results

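The genes described here encode the Adam, Adamts, Adamts-like and Mmp proteins and their Timp inhibitors. They were found by gene symbol alone, as every Adam gene with a number, every Adamts and Adamtsl gene, every numbered Mmp gene and *Timp1* to *Timp4*. Of 13809 genes in the count table, 48 met this rule: 13 Adam, 16 Adamts, 5 Adamts-like, 10 Mmp and 4 Timp genes. The mouse annotation (GENCODE M21) holds 78 such names, and the 30 without a row, *Mmp9* and the collagenases *Mmp8* and *Mmp13* among them, were not analysed here. The study compared hearts of wildtype (WT) mouse embryos with hearts of pkm1-knockout (KO) embryos at E18.5, with 3 libraries per genotype. KO embryos were homozygous for a small deletion, made with CRISPR/Cas9, in the exon that only the *Pkm1* splice form of pyruvate kinase uses. The deletion is in the germline, so it is carried by every cell type, and both genotypes came from crosses of heterozygous mice. The tissue is heart in the labels and ventricle in the study's text, and neither gives the sex of the embryos.

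Adamts and Mmp enzymes are zinc proteases that cut proteins of the extracellular matrix, and most Adam enzymes cut the outer part of membrane proteins in a step called shedding. All are made with a propeptide that must be removed, often by furin. Timp proteins block the zinc site, and *Timp3* also inhibits several Adam and Adamts enzymes. Adamts-like proteins resemble the non-catalytic part of an Adamts enzyme and bind microfibrils, the fibrillin fibres of the matrix. In the embryonic heart, cleavage of versican, the main proteoglycan of the cardiac jelly, is known to accompany trabeculation and valve remodelling.

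The zinc site of these enzymes is a short run of codons, and it was searched for in frame in the coding sequence of each gene. The sites of the enzymes on which the results below turn are shown so that the proteases of the different families can be compared. Capitals mark the codons of the histidines that hold the zinc and of the catalytic glutamate, and each site is 33 bases long and is written on the coding strand, 5′ to 3′.
Adamts1: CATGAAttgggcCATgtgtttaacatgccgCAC
Adamts15: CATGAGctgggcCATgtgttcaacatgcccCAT
Adamts9: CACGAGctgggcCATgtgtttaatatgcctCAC
Adamts5: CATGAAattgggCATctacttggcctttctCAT
Adam9: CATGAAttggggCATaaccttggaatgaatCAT
Adam19: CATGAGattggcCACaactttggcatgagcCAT
Mmp2: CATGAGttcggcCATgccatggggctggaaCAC
Mmp14: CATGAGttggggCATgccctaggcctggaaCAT
Mmp15: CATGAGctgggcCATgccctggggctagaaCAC

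Compared to the 33 bases of *Adamts1*, the sites of *Adamts15* and *Adamts9* were identical at 28 positions each, that of *Adam9* at 21 and those of *Adamts5*, *Adam19*, *Mmp2* and *Mmp14* at 20. *Mmp15* shared 19 positions. In GRCm38 the sites lie in coding exons at chr11:46125050-46125082 (*Adam19*, plus strand, exon 11 of 23), chr8:24990326-24990358 (*Adam9*, minus strand, exon 11 of 22), chr8:92839279-92839311 (*Mmp2*, plus strand, exon 8 of 13), chr14:54437627-54437659 (*Mmp14*, plus strand, exon 5 of 10) and chr8:95368585-95368617 (*Mmp15*, plus strand, exon 5 of 10). The 4 Adamts sites shown are each split by an intron: chr16:85799191-85799545 (*Adamts1*, minus strand), chr9:30911255-30911690 (*Adamts15*, minus strand), chr6:92905285-92908493 (*Adamts9*, minus strand) and chr16:85878015-85887826 (*Adamts5*, minus strand). Codons of such a site were found in 34 of the 48 genes: in 16 of 16 Adamts, 10 of 10 Mmp and 8 of 13 Adam genes. The pattern was not found in the 5 Adamts-like and 4 Timp genes, nor in *Adam4*, *Adam11*, *Adam22*, *Adam23* and *Adam32*.

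The libraries held 15567624 to 19875546 counts. Levels are given as CPM, counts scaled to library size after edgeR's TMM scaling, and a count of 3, taken as the floor, was 0.151 to 0.193 CPM. Levels of different genes are compared only as CPM per kilobase of annotated exon (RPKM). Adjusted p-values come from the quasi-likelihood test of edgeR, adjusted by Benjamini-Hochberg over 13804 genes, and a gene is called lower or higher in KO where this p is under 0.05. *Pkm*, the targeted gene, was at 1318 ± 41.1 CPM in WT against 542 ± 10.1 CPM in KO (SD, n = 3 each; log2 fold change -1.28, adjusted p = 1.47e-23). The groups also parted on sex-linked genes: *Xist*, the X-inactivation RNA, was at 5.26 CPM in WT against 2285 CPM in KO, and the Y-linked genes *Kdm5d*, *Eif2s3y*, *Uty* and *Ddx3y* were at 0 in every KO library. Genotype and sex therefore cannot be told apart for any gene below. Of the 48 genes, only *Timp1* is X-linked and none is Y-linked. Markers of cardiomyocytes were the most abundant of the marker lists, and their sum was 58590 to 62060 CPM in WT against 54399 to 55153 CPM in KO. Counts of *Rn45s*, the ribosomal RNA precursor, were 2.21% to 2.48% of the WT libraries and 2.70% to 2.79% of the KO libraries, and their part in the results was not tested. WT c stood apart from WT a and WT b. Without it the 21 calls described below were kept, and *Adamts8* and *Mmp12* were called as well. In bulk tissue, fewer cells of a type and less RNA per cell cannot be told apart.

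All 48 genes passed the filter on low counts. In KO hearts 14 were lower, 7 were higher and 27 were not called. The lower genes were 29.2% of the 48, where 15.7% of all genes tested were lower, and the higher genes were 14.6%, the same share as the 14.6% of all genes. With upper-quartile scaling in place of TMM, 11 were lower and 9 were higher, and without WT b 9 were lower. A change of at least 1.5-fold was called for 2 lower genes (4.17% of the 48, against 3.20% of all genes), *Adamts1* and *Timp4*, and for 1 higher gene (2.08%, against 2.99%), *Adam4*. Every WT library was above every KO library for 17 genes (35.4%, against 21.4% of all genes), and every KO library was above every WT library for 12 (25%, against 21.0%). The median log2 fold change of the 48 genes was -0.03, and that of all genes was 0.00. Most of the called changes were therefore small: apart from *Adamts1*, *Timp4* and *Adam4*, the called log2 fold changes lay between -0.56 and 0.42.

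**Figure D1:**
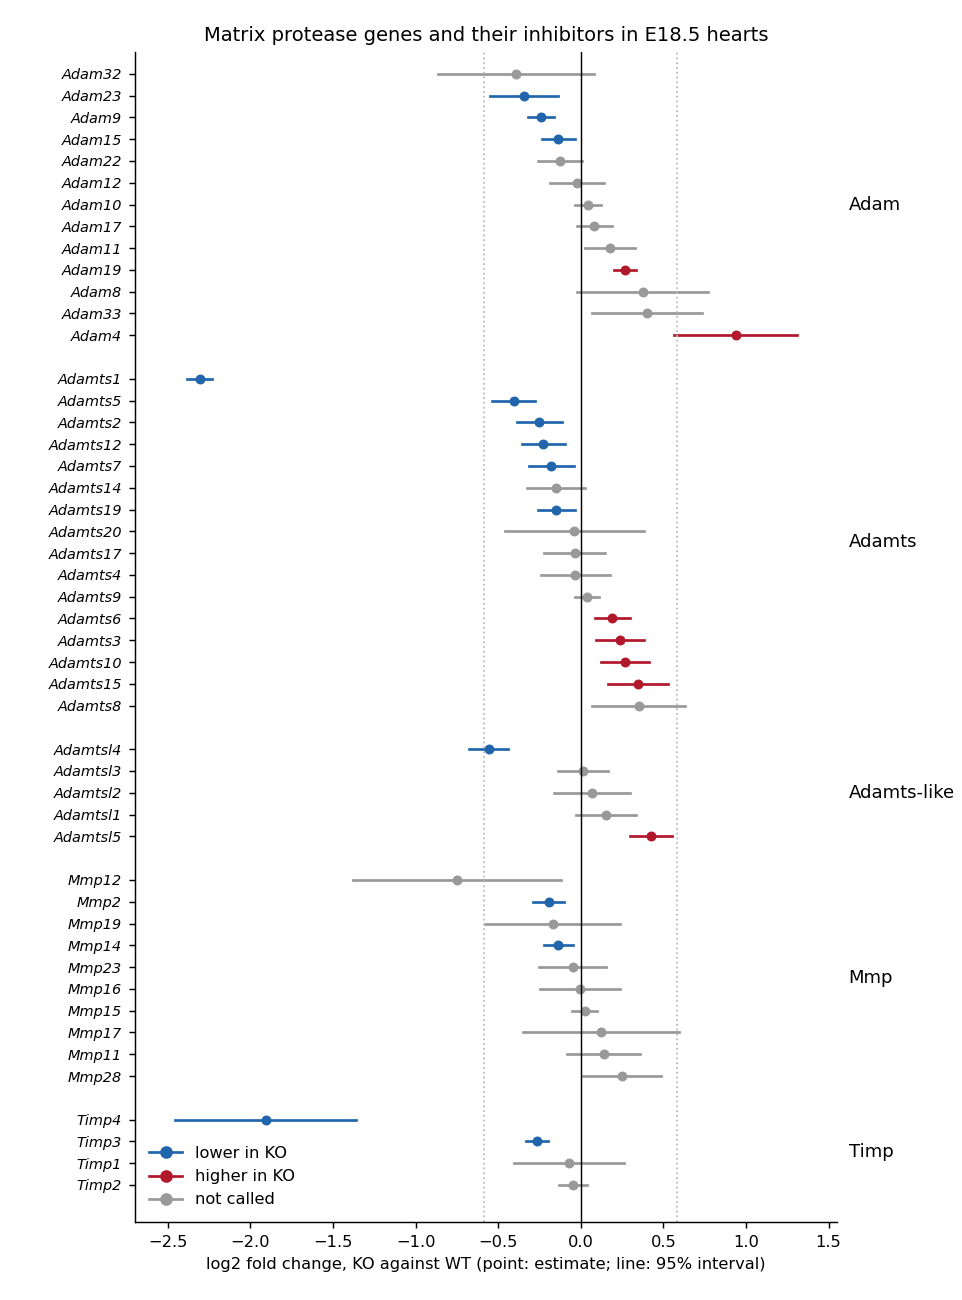
Log2 fold change of KO against WT for the 48 genes (x axis), grouped by family and ordered by value. Points are estimates from edgeR and lines their 95% intervals, dotted lines mark a 1.5-fold change, blue is lower in KO, red higher and grey not called. *Adamts1* at -2.31 and *Timp4* at -1.91 lie far to the left of the other genes, and *Adam4* at 0.94 lies farthest to the right.

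Among the Adamts enzymes that cut versican, aggrecan and related proteoglycans, *Adamts1* was the gene that fell most in KO hearts. This secreted protease lies on chromosome 16 from 85793827 to 85803113 on the minus strand. WT a, b and c had 479, 478 and 469 CPM, and KO a, b and c had 96.9, 101 and 91.0 CPM. No KO library came near a WT library, and within each genotype the libraries were close together. The KO mean was 0.202 times the WT mean, a log2 fold change of -2.31 (95% interval -2.38 to -2.23, adjusted p = 1.70e-26). Per kilobase, *Adamts1* was the most abundant of the 48 genes in WT hearts, at 89.6 RPKM. In KO hearts it was at 18.1 RPKM, below *Mmp15* at 45.7 RPKM among others. The *Adamts1* transcript shared none of its 50-base words with another annotated transcript, and no annotated gene overlaps it. In each alternative fit and with each library left out, it was lower in KO by more than 1.5-fold.

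The other proteoglycanases changed less, and in both directions. *Adamts5*, known as an aggrecanase and versicanase of cartilage and heart valves, lies on the same strand of chromosome 16, from 85856173 to 85901828. Its level was 34.7, 36.1 and 34.6 CPM in WT against 26.9, 28.2 and 24.8 CPM in KO, so the groups did not overlap (log2 fold change -0.41, SE 0.0642, adjusted p = 2.15e-05). *Adamts15*, on chromosome 9, was higher instead. Its libraries had 13.7, 12.9 and 13.3 CPM in WT against 15.4, 17.1 and 18.2 CPM in KO (log2 fold change 0.35, SE 0.0878, adjusted p = 0.0037). *Adamts9*, a versicanase and the second most abundant gene of the class, had 186, 184 and 181 CPM in WT against 186, 195 and 186 CPM in KO. These groups overlapped, and the log2 fold change of 0.04 had a 95% interval of -0.03 to 0.11 (adjusted p = 0.433). *Adamts4*, *Adamts8* and *Adamts20* were not called, with log2 fold changes of -0.03, 0.35 and -0.04 and overlapping groups. Genes on the opposite strand overlap 9.18% and 2.82% of the exon bases of *Adamts9* and 10.6% of those of *Adamts8*. *Adamts8* was called higher in 4 of 15 alternatives (upper-quartile factors, and without WT b, WT c or KO a). In all, 2 of 7 proteoglycanases were lower (28.6%, against 15.7% of all genes) and 1 was higher (14.3%, against 14.6%).

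**Figure D2:**
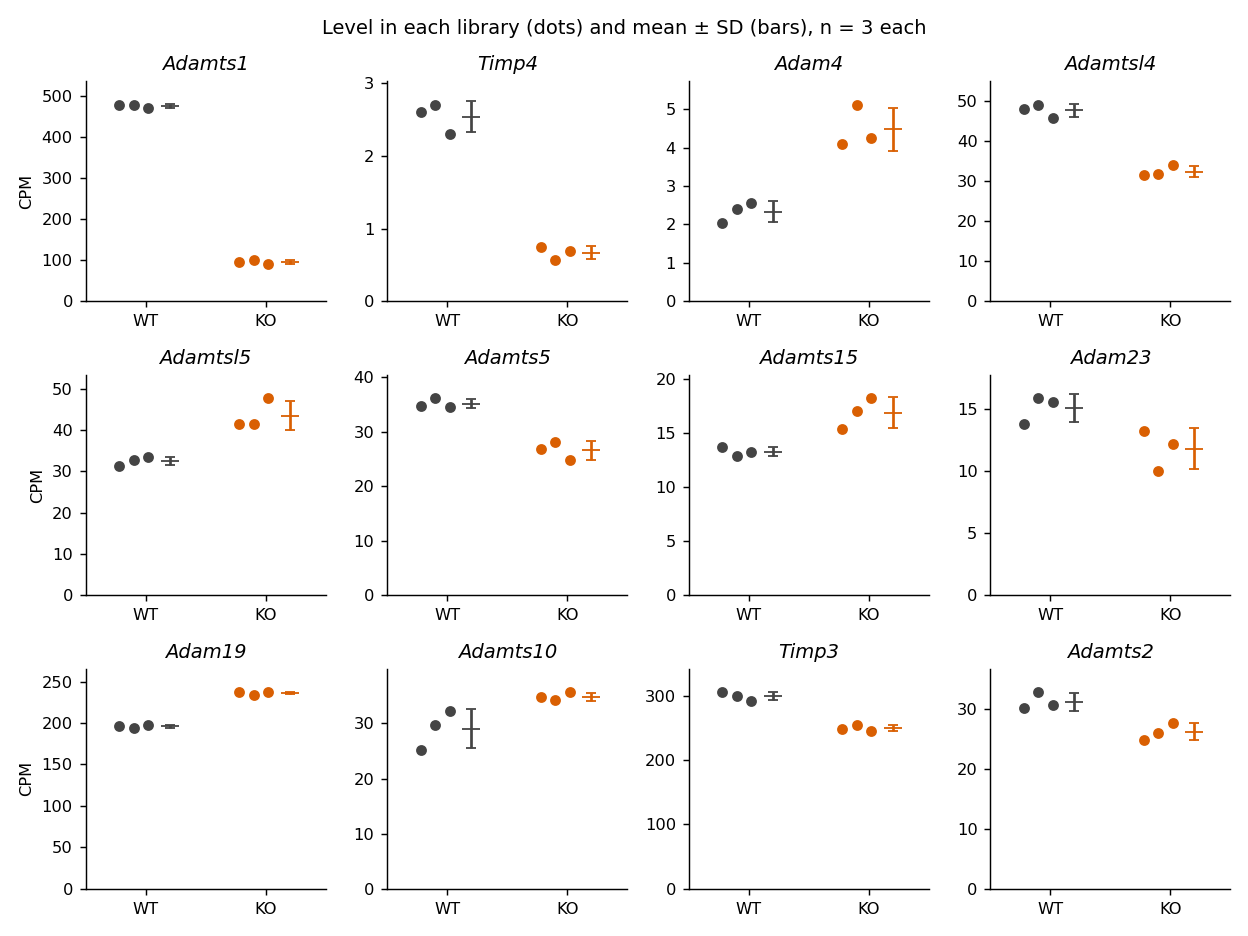
CPM of each library (y axis, from 0, a scale of its own in each panel) for the 12 called genes with the largest absolute log2 fold change. Dots are the 3 libraries per genotype and bars the mean ± SD. *Adamts1* was at 469 to 479 CPM in WT against 91.0 to 101 CPM in KO. In none of the 12 panels do the genotypes overlap, which choosing called genes with large changes makes likely. Among all genes, 21.4% had every WT library above every KO library, and 21.0% the reverse.

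The summed level of the 7 proteoglycanases was 111, 111 and 109 RPKM in the WT libraries and 38.5, 40.9 and 38.2 RPKM in the KO libraries. The KO mean was 0.355 times the WT mean (two-sided exact permutation p = 0.1, the smallest that 3 against 3 libraries can give). Without *Adamts1* the sums were 20.7, 21.2 and 20.5 RPKM in WT and 20.2, 22.0 and 21.0 RPKM in KO hearts. These ranges overlapped, and the means differed by a factor of 1.01 (exact permutation p = 0.7). *Adamts1* made up 81.2% ± 0.221 of the class in WT and 46.2% ± 1.24 in KO hearts (SD, n = 3 each). The share of *Adamts9* was 11.1% ± 0.0856 in WT and 32.0% ± 0.337 in KO hearts, and its own RPKM was 12.2 and 12.6. The ratio of *Adamts1* to *Adamts9* transcripts was thus 7.34 ± 0.0415 in WT and 1.44 ± 0.0491 in KO hearts.

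**Figure D3:**
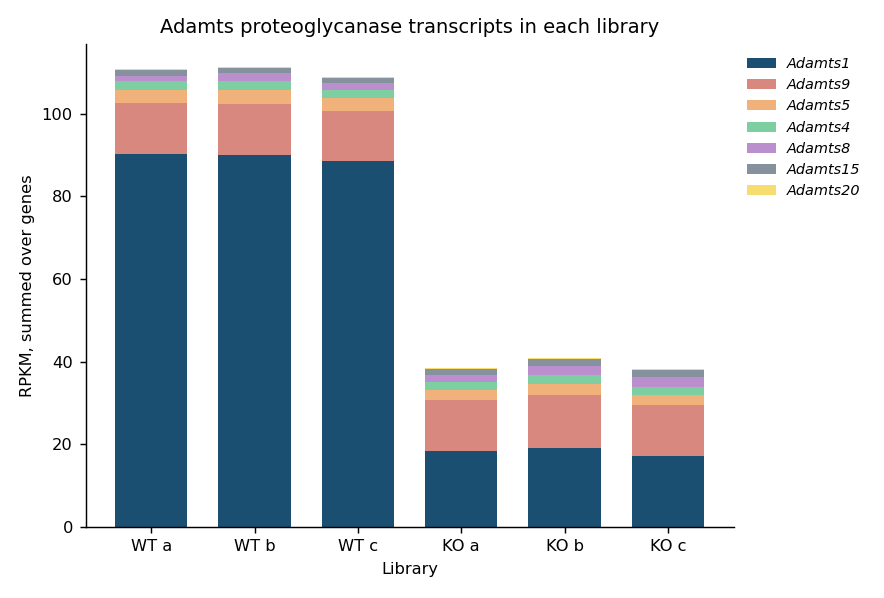
Summed RPKM of the 7 Adamts proteoglycanase genes in each library (x axis), with a coloured segment for each gene. The bars reach 109 to 111 RPKM in WT and 38.2 to 40.9 RPKM in KO hearts, and the segment of *Adamts1* accounts for the difference in height, with the other 6 genes at 20.5 to 21.2 RPKM in WT and 20.2 to 22.0 RPKM in KO hearts.

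The procollagen N-proteinases trim the amino end of fibrillar procollagens. *Adamts2* was at 30.2, 32.9 and 30.7 CPM in WT against 24.9, 26.1 and 27.8 CPM in KO (log2 fold change -0.25, adjusted p = 0.0048). *Adamts3*, which also processes the lymphatic growth factor VEGF-C, went the other way, with 22.8, 23.1 and 21.3 CPM in WT against 27.9, 26.8 and 24.8 CPM in KO (0.24, adjusted p = 0.0116). Its call was lost without KO a (adjusted p = 0.0776). The third gene of the group, *Adamts14*, had a log2 fold change of -0.15 (adjusted p = 0.186). Its KO libraries were all below its WT libraries. Together the 3 genes summed to 10.4 to 11.1 RPKM in WT and 10.5 to 10.8 RPKM in KO hearts.

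The remaining 6 Adamts enzymes also split in both directions, with 3 lower (50%), 2 higher (33.3%) and 1 not called. Of all genes, 15.7% were lower and 14.6% were higher. *Adamts12* and *Adamts7*, which cut the cartilage protein *Comp*, had log2 fold changes of -0.23 (adjusted p = 0.0077) and -0.18 (adjusted p = 0.0403). *Adamts19*, known from heart valves, was at -0.15 (adjusted p = 0.0396). The calls of *Adamts7* and *Adamts19* were lost in 6 and 7 of 15 alternatives, with a largest adjusted p of 0.143 (without KO a) and 0.219 (without KO c). *Adamts10* and *Adamts6*, a pair of related enzymes that act on fibrillin microfibrils, rose. *Adamts6* was the most abundant of this group and had 92.7, 92.1 and 77.5 CPM in WT against 98.9, 98.6 and 102 CPM in KO (0.19, adjusted p = 0.0062). WT c lay well below the other 5 libraries, and without it the log2 fold change was 0.11 (adjusted p = 0.0255). For *Adamts10* the values were 25.3, 29.6 and 32.3 CPM in WT against 34.7, 34.2 and 35.6 CPM in KO (0.27, adjusted p = 0.0057). The call was lost without WT a, its lowest library (log2 fold change 0.17, adjusted p = 0.0622). *Adamts17* was not called (-0.04).

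Adamts-like proteins have no protease domain. *Adamtsl4*, which binds fibrillin-1 microfibrils, fell from 48.1, 49.0 and 45.7 CPM to 31.4, 31.6 and 34.0 CPM. This was a log2 fold change of -0.56 (SE 0.058, adjusted p = 2.71e-08), the third strongest decrease among the called genes. *Adamtsl5*, another microfibril-binding protein, rose from 31.3, 32.7 and 33.4 CPM to 41.5, 41.4 and 47.7 CPM (0.42, SE 0.0633, adjusted p = 9.45e-06). Neither gene had overlapping groups. Per kilobase the 2 were also the most abundant of the 5, with *Adamtsl4* at 11.3 RPKM in WT and 7.71 RPKM in KO hearts, and *Adamtsl5* at 6.88 and 9.22 RPKM. In WT hearts *Adamtsl4* was thus the more abundant transcript and in KO hearts *Adamtsl5*. The sum over the 5 genes was 23.0 ± 0.262 RPKM in WT and 21.9 ± 1.31 RPKM in KO hearts (exact permutation p = 0.4). *Adamtsl1*, *Adamtsl2* and *Adamtsl3* were not called, with log2 fold changes of 0.15, 0.07 and 0.01.

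Of the 4 inhibitors, *Timp4* and *Timp3* were lower and *Timp1* and *Timp2* were not called. *Timp3*, which binds to the matrix and has the broadest reach of the family, was at 305, 300 and 292 CPM in WT against 249, 254 and 244 CPM in KO. All KO libraries lay below all WT libraries (log2 fold change -0.27, SE 0.0315, adjusted p = 2.64e-07). It was the most abundant of the inhibitors, at 36.7 RPKM in WT and 30.6 RPKM in KO hearts. *Timp4*, known for its expression in heart muscle, was scarce, with 45, 53 and 35 counts in WT and 14, 9 and 13 counts in KO libraries. These counts were 2.61, 2.70 and 2.30 CPM and 0.742, 0.568 and 0.698 CPM, above the floor in every library. The KO mean was 0.264 times the WT mean (log2 fold change -1.91, SE 0.267, adjusted p = 3.89e-06). *Timp2*, which together with *Mmp14* activates *Mmp2*, had 100.4, 103 and 107 CPM in WT against 102, 101 and 97.4 CPM in KO (-0.05, 95% interval -0.13 to 0.04). X-linked *Timp1* was at 3.94, 3.78 and 4.93 CPM in WT against 4.29, 3.79 and 3.81 CPM in KO (-0.07, 95% interval -0.41 to 0.26).

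*Timp1*, *Timp3* and *Timp4* each lie inside a synapsin gene on the opposite strand. *Timp3*, on chromosome 10 from 86300372 to 86349506 (plus strand), sits within *Syn3*, and 1733 bases (21.3%) of its exons overlap exons of *Syn3*. *Timp4*, on chromosome 6 from 115241892 to 115252205 (minus strand), sits within *Syn2*, with 90 shared exon bases (1.53%). Whether the counting used strand is not given in the sources used here, so reads in the shared bases cannot be assigned. *Timp1*, which was not called, lies in *Syn1* and shares no exon bases with it. *Syn1* was scarce and was higher, at 0.976 CPM in WT against 1.84 CPM in KO (log2 fold change 0.93, adjusted p = 0.0184). The other two host genes were not called, with *Syn3* at 6.29 CPM in WT against 6.75 CPM in KO (log2 fold change 0.09, adjusted p = 0.626) and *Syn2* at 2.28 and 2.56 CPM (0.18, adjusted p = 0.561).

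Of the 10 Mmp genes 2 (20%) were lower and none was higher, where 15.7% of all genes tested were lower and 14.6% higher. *Mmp2*, a gelatinase, was at 81.0, 82.1 and 81.5 CPM in WT against 68.1, 73.0 and 72.7 CPM in KO (log2 fold change -0.19, SE 0.0451, adjusted p = 0.0016). *Mmp14*, the membrane protease that activates *Mmp2*, was at 77.5, 77.2 and 76.7 CPM in WT against 69.4, 71.2 and 70.2 CPM in KO (-0.14, SE 0.044, adjusted p = 0.0207). The groups did not overlap for either gene, but the call of *Mmp14* was lost in 4 of 15 alternatives, with an adjusted p of 0.0579 in DESeq2 and 0.0807 without KO a. The most abundant Mmp transcript was that of *Mmp15*, another membrane-type protease, at 45.0 ± 1.70 RPKM in WT and 45.7 ± 2.08 RPKM in KO hearts. Its groups overlapped, and the log2 fold change of 0.02 had a 95% interval of -0.05 to 0.10. *Mmp12*, the macrophage elastase, was the least abundant of the 48 genes in WT hearts, at 0.198 RPKM. In KO hearts it was at 0.118 RPKM, just above *Timp4* at 0.114 RPKM. The log2 fold change of *Mmp12*, -0.75, missed the threshold (95% interval -1.38 to -0.12, adjusted p = 0.0653). *Mmp11*, *Mmp16*, *Mmp17*, *Mmp19*, *Mmp23* and *Mmp28* were not called, with log2 fold changes between -0.17 and 0.25. Exons of *Mmp19* and *Mmp28* overlap those of opposite-strand genes over 22.3% and 12% of their length, and their values are uncertain for the reason given for *Timp3*.

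The summed level of the Mmp genes was 94.1 ± 2.19 RPKM in WT and 91.0 ± 2.55 RPKM in KO hearts (exact permutation p = 0.2), and the sums overlapped. That of the Timp genes was 68.4 ± 0.704 and 60.8 ± 1.19 RPKM, with every KO library below every WT library (exact permutation p = 0.1, the smallest possible). The ratio of Mmp to Timp transcripts was 1.35, 1.40 and 1.38 in WT and 1.45, 1.47 and 1.58 in KO hearts (exact permutation p = 0.1). The ratio of *Adamts1* to *Timp3* moved much further, from 2.44 ± 0.0298 in WT to 0.593 ± 0.0189 in KO hearts. Summed over all 48 genes, levels were 453 to 455 RPKM in WT and 370 to 375 RPKM in KO hearts, and without *Adamts1* they were 362 to 365 and 351 to 358 RPKM.

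**Figure D4:**
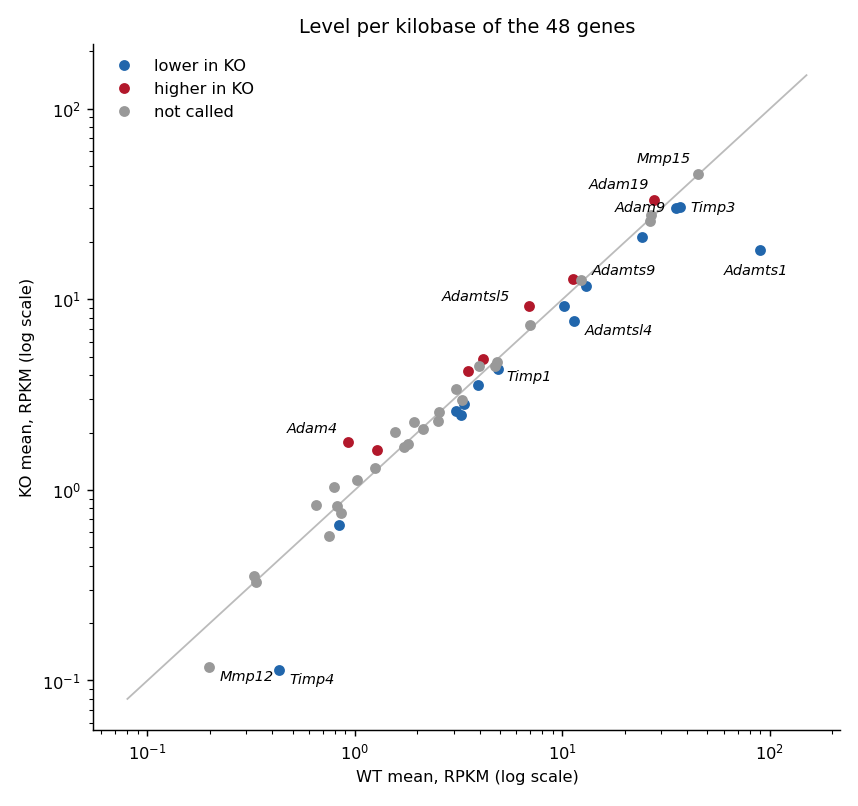
Mean RPKM of each gene in WT (x axis) and KO hearts (y axis), both on log scales, with 1 point per gene and a line where both are equal. Points are coloured by call as named in the key. *Adamts1* lies below the line at 89.6 RPKM in WT and 18.1 RPKM in KO hearts, *Mmp15* lies on it at 45.0 and 45.7 RPKM, and *Timp4* lies below it at 0.430 and 0.114 RPKM.

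Several sheddases of the Adam family were among the most abundant of the 48 genes, and their changes were small. *Adam10* and *Adam17*, the main sheddases of Notch receptors, cytokines and growth factors, were not called. *Adam10* had 136, 130 and 128 CPM in WT against 134, 137 and 135 CPM in KO, and the groups overlapped (log2 fold change 0.04, 95% interval -0.03 to 0.12). *Adam17* was at 49.6 ± 0.391 CPM in WT against 52.6 ± 1.20 CPM in KO. Here every KO library was above every WT library, but the difference missed the threshold (0.08, 95% interval -0.02 to 0.19, adjusted p = 0.228).

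*Adam9* and *Adam15* were lower and *Adam19* was higher. *Adam9*, the most abundant Adam transcript in WT hearts at 35.4 RPKM, had 144, 144 and 148 CPM in WT against 124, 127 and 119 CPM in KO (log2 fold change -0.24, SE 0.0377, adjusted p = 2.09e-05). *Adam19*, known for its part in endocardial cushion and valve development, had 197, 194 and 197 CPM in WT against 237, 234 and 237 CPM in KO (0.27, SE 0.032, adjusted p = 2.74e-07). In KO hearts *Adam19*, at 33.2 RPKM, stood above *Adam9*, at 29.96 RPKM, and in WT hearts the order was the reverse, with *Adam19* at 27.5 RPKM. For *Adam15* the log2 fold change was -0.14 (adjusted p = 0.0326), and this call was lost in 8 of 15 alternatives (largest adjusted p = 0.117, without KO a). An antisense gene covers 20.6% of the exon bases of *Adam15*, and antisense genes cover 8.25% and 6.75% of those of *Adam19*. *Adam8*, *Adam12* and *Adam33* were not called, at 0.37, -0.02 and 0.40. The summed level of all 13 Adam genes was 119 ± 0.886 RPKM in WT and 121 ± 1.22 RPKM in KO hearts, a ratio of 1.02. Every KO sum was above every WT sum, though narrowly (exact permutation p = 0.1, the smallest possible).

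Of the Adam genes without zinc site codons, *Adam23* was lower and *Adam4* higher. *Adam11*, *Adam22* and *Adam23* encode cell surface proteins best known as binding partners of secreted Lgi proteins in the nervous system. *Adam23* had 13.7, 15.8 and 15.5 CPM in WT against 13.2, 9.98 and 12.2 CPM in KO (log2 fold change -0.34, SE 0.10, adjusted p = 0.011). KO a came close to WT a, and the call was lost without WT b (adjusted p = 0.0624) or KO b (adjusted p = 0.0888). *Adam11* and *Adam22* were not called, at 0.18 and -0.13, and *Adam32* was at -0.39 (adjusted p = 0.204). *Adam4* had 2.03, 2.40 and 2.56 CPM in WT against 4.08, 5.12 and 4.24 CPM in KO. The KO mean was 1.92 times the WT mean (0.94, SE 0.181, adjusted p = 0.0003). Its value is uncertain, since 17.4% of its 50-base words also occur in transcripts of other genes, those of *Gm4787* most of all. *Adam4* also lies within *Cox16* on the same strand of chromosome 12 (81419443 to 81421946), though they share no annotated exon bases. *Cox16* was at 2.36 CPM in WT against 3.33 CPM in KO (0.49, adjusted p = 0.0528).

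Genes with and without zinc site codons were called in about the same proportions. Of the 34 genes with the codons, 10 were lower, 5 were higher and 19 were not called. Among the 14 without them, 4 were lower, 2 were higher and 8 were not called. Of all genes tested, 15.7% were lower and 14.6% were higher. With so few genes, a difference between the kinds could be missed. The genes with the strongest decreases were 1 of each kind, the protease *Adamts1* and the inhibitor *Timp4*. By family, the median log2 fold change was 0.04 for Adam, -0.04 for Adamts, 0.07 for Adamts-like, -0.03 for Mmp and -0.17 for Timp genes.

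Activators, partners and other inhibitors of these enzymes were counted in the same fit. Of 23 such genes that were measured, 9 were lower (39.1%) and 1 was higher (4.35%), against 15.7% and 14.6% of all genes, with a median log2 fold change of -0.15. *Papln*, papilin, a matrix protein related to the Adamts family, was at 26.6 and 19.9 CPM (-0.42, adjusted p = 6.06e-05). *Pcsk6*, a convertase of the furin family, was at -0.36 (adjusted p = 0.0005), and furin itself was at -0.22 (adjusted p = 0.0002). *Tspan15* and *Tspan33*, tetraspanins that travel with *Adam10*, were at -0.34 (adjusted p = 0.0365) and 1.02 (adjusted p = 0.0054). *Tspan33* was scarce, at 0.995 CPM in WT against 2.05 CPM in KO. *Reck*, *Bsg* and *Lrp1*, which restrain, induce and clear matrix proteases, were not called, with log2 fold changes between -0.02 and 0.04.

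The proteoglycan list held 18 genes. It mixes known or likely substrates of the Adamts enzymes with genes such as the hyaluronan synthases *Has1*, *Has2* and *Has3* and the receptor *Cd44*. Of the 18 genes, 6 were lower (33.3%) and 2 were higher (11.1%; median -0.05), against 15.7% and 14.6% of all genes. *Thbs1*, thrombospondin-1, fell from 243 to 62.6 CPM, a log2 fold change of -1.96 (adjusted p = 3.30e-24), close to that of *Adamts1*. *Vcan*, the gene of versican, was at 417 CPM in WT against 350 CPM in KO (-0.25, adjusted p = 1.61e-07). *Acan*, the gene of aggrecan, was at 4.34 and 2.59 CPM (-0.74, adjusted p = 0.0023). *Hapln1*, which links versican and aggrecan to hyaluronan, rose from 1.37 to 2.60 CPM (0.87, adjusted p = 0.0115), and *Fmod*, fibromodulin, from 5.69 to 7.49 CPM (0.40, adjusted p = 0.0247).

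Among 18 genes of procollagen and elastic fibre processing, 4 were lower (22.2%) and 2 were higher (11.1%), near the 15.7% and 14.6% of all genes (median 0.00). *Mfap5*, a microfibril protein, was at -0.60 (adjusted p = 8.60e-05), *Loxl1*, a lysyl oxidase of elastic fibres, at -0.20 (adjusted p = 0.015) and *Fbn1*, fibrillin-1, at -0.13 (adjusted p = 0.0016). *Ltbp2*, a fibrillin-binding protein, was higher at 0.88 (adjusted p = 0.0002), and *Fbn2*, fibrillin-2, at 0.12 (adjusted p = 0.002). Of 19 genes whose proteins are shed by Adam enzymes, 5 were lower (26.3%) and 2 were higher (10.5%; median -0.04). The shares of all genes were again 15.7% and 14.6%. *Hbegf*, an EGF-family ligand, was at -0.44 (adjusted p = 0.0004), *Nrg1*, the neuregulin of endocardium to myocardium signalling, at 0.60 (adjusted p = 0.0029) and *Btc*, betacellulin, at 0.46 (adjusted p = 0.0293). The growth factors *Csf1* and *Kitl* were at -0.29 (adjusted p = 0.0045) and -0.26 (adjusted p = 0.0003).

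Early response transcripts, which cells make within minutes of a stimulus, were 22 of 22 lower in KO hearts, against 15.7% of all genes. Their summed level was 2960 to 3200 CPM in WT against 752 to 764 CPM in KO, and their median log2 fold change was -1.48. *Fos* was at -4.02 (adjusted p = 3.37e-21), *Ctgf* at -3.29 (adjusted p = 1.81e-30), *Atf3* at -3.12 (adjusted p = 6.43e-21), *Fosb* at -3.10 (adjusted p = 5.51e-14) and *Egr1* at -2.57 (adjusted p = 3.33e-22). The smallest change in the list was -0.58. The list, like the others, was chosen with earlier results of these data known. *Adamts1*, at -2.31, lay inside the range of these genes, as *Thbs1* did. The part of this shared difference between the libraries in the result for *Adamts1* was not tested.

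**Figure D5:**
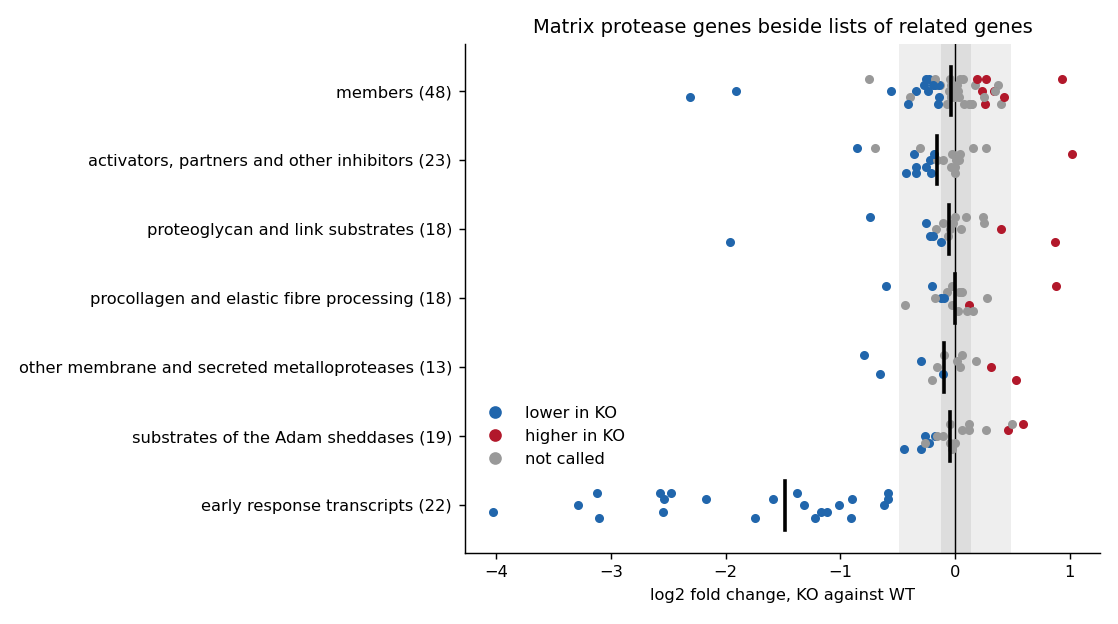
Log2 fold change of KO against WT (x axis) for the 48 genes ("members") and for the lists of related genes, with the number of genes in brackets. Dots are genes coloured by call, black bars are medians, and the grey bands hold the middle 50% and 90% of all genes tested. The early response transcripts lie wholly to the left, with a median of -1.48, while the medians of the other rows lie between -0.15 and 0.00.

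Markers of some cell types that make matrix proteases also differed between the groups. The counts of called markers below stand beside 15.7% lower and 14.6% higher among all genes tested. The 8 fibroblast markers summed to 3946 to 3992 CPM in WT against 3677 to 3746 CPM in KO, with 4 of 8 lower, *Dcn* and *Lum* of the proteoglycan list among them. Endothelial and endocardial markers summed to 1191 to 1198 and 1122 to 1138 CPM (3 of 8 lower), and smooth muscle and pericyte markers to 1273 to 1292 and 1217 to 1229 CPM (3 lower, 1 higher). Epicardial and mesothelial markers summed to 95.1 to 99.0 CPM in WT against 110 to 114 CPM in KO (3 of 6 higher). Atrial markers summed to 595 to 601 and 1006 to 1030 CPM. Of these, *Nppa* (372 CPM in WT against 597 CPM in KO), *Myl4* (142 and 305 CPM) and *Myl7* (46.3 and 77.7 CPM) were higher, and *Nr2f1*, *Stard10* and *Nr2f2* were not called, with log2 fold changes of -0.23, -0.09 and 0.06. Cardiomyocyte markers were lower for 6 of 8 genes and higher for 2. Macrophage markers summed to 61.6 to 66.6 and 60.0 to 67.5 CPM (2 of 8 lower), neutrophil markers to 6.99 to 8.08 and 5.15 to 5.49 CPM (1 of 4 lower) and erythroid markers to 33.5 to 35.5 and 35.8 to 43.0 CPM (1 of 3 lower, 1 higher). The 3 lymphoid and megakaryocyte markers in the table were at 6.77 to 11.4 and 8.96 to 9.98 CPM and none was called. The part of these differences in the values of the proteases and inhibitors was not tested.

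Promoters were compared for the genes with an entry in RefSeq (GRCm38.p6), which were 29 of the 48. A window from 250 bases before to 50 bases after the start site was searched on both strands, for the same motifs in 27025 genes. Each gene had 1 window, and where RefSeq holds several start sites the one farthest upstream was used. Among the called genes this concerned *Adam19*, which has 3 start sites, and the windows of its other starts were not searched. CCAAT, the box bound by NFY, the factor that the study examined, was in 9 of 29 windows (31%), against 38% of all windows. These 9 were those of *Adam8*, *Adam10*, *Adam15*, *Adam19*, *Adamts17*, *Adamts20*, *Mmp14*, *Timp1* and *Timp2*. Of the 9 lower genes with an entry 2 held it, and of the 3 higher genes 1. GGAATG, bound by TEAD factors, was in 1 window, that of *Timp1*, against 14.7% of all. TGACTCA, the AP-1 site, TGACGTCA, the CRE, and the CArG box were in none of the 29, against 5.17%, 1.85% and 1.59% of all windows. No motif match overlapped another. The 250 bases before the start site are shown for *Adamts1*, the gene with the largest change, and for *Mmp14*, the lower gene with a pair of CCAAT boxes, which lie at -69 to -65 and -23 to -19 and are in capitals as read on the opposite strand. The bases are written on the strand of the gene, 5′ to 3′, at chr16:85803114-85803363 (minus strand) for *Adamts1* and chr14:54431348-54431597 (plus strand) for *Mmp14*.
Adamts1: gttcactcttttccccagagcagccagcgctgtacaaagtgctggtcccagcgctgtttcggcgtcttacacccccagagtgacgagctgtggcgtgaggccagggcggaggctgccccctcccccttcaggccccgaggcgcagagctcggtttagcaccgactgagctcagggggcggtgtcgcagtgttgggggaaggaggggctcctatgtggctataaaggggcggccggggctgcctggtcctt
Mmp14: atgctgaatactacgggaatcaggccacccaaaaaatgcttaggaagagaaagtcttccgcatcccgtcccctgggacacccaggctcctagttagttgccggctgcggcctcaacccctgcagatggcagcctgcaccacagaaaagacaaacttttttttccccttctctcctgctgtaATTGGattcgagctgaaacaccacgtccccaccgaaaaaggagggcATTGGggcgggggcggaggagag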

How the data were processed

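RNA-seq libraries of 3 WT and 3 KO E18.5 hearts, made from total RNA after removal of ribosomal RNA, were analysed. The submitters' processing notes name cutadapt 1.18, HISAT2, StringTie and mm10. The counting program, its strand setting and the gene filter are not given in the sources used here. The authors deposited a table of raw counts, with a row per gene symbol and a column per library. It also holds the deposited log2 fold changes, mean log2 CPM values, p-values and FDR of their own comparison, which were not used. Column names carry the genotype and no replicate number, so libraries are named a to c within each genotype by column order. Labels give separate samples, and the p-values measure the spread between them. No pair of libraries agreed within counting noise. The mean chi-square per gene was 3.91 and 3.35 for WT c against WT a and WT b, and 1.56 to 1.92 for the other pairs.

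The fit used edgeR 4.0.16 in R 4.3.3: filterByExpr (13804 of 13809 genes kept), TMM, and the quasi-likelihood test with no term beside genotype. P-values were adjusted by Benjamini-Hochberg. Intervals and floors cover counting error or the spread of these libraries only. Of the symbols, 13299 matched GENCODE M21 directly and 487 through RefSeq, and 23 did not match. Exon lengths are unions over transcripts. Alternatives were RLE and upper-quartile factors, DESeq2 1.42.0, edgeR's exact test, limma 3.58.1 voom, no filter, at least 10 counts in every library, X and Y genes left out, libraries thinned to the smallest total, and each library left out. On simulated counts with 200 of 13804 genes changed by 1.5-fold for KO against WT, 172 were recovered, with 15 false calls. Named genes were the called genes, the 4 Timp genes, the most abundant gene of each class and up to 5 called genes per related list, and other members by their values. The members and lists were chosen with earlier results of these data known. Figures were drawn with matplotlib 3.10.9. A gene of the related lists is counted but not reported here by name.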

Additional observations from a re-analysis of the deposited data

How the results depend on the processing

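Over 15 alternatives, 16 of the 27 named proteases and inhibitors kept their direction and their side of the threshold, *Adamts1*, *Timp3*, *Adam4*, *Adamtsl4* and *Adamtsl5* among them. *Timp4* was among these where it was tested: with at least 10 counts in every library it left the fit, so 1 gene, *Adamts1*, was lower by at least 1.5-fold. With each library left out in turn, 9 to 15 genes were lower (9 without WT b) and 2 to 4 were lower by at least 1.5-fold (4 without WT c, when *Adamtsl4* and *Mmp12* also passed). Of the 403 values of the 27 named genes, 29 lost the call, 2 gained it (*Adam11*) and 4 changed sign. Among the other genes of the 48, *Adamts8* gained a call in 4 alternatives, *Mmp12* in 3 and *Adam8* and *Adam33* in 1 each. Calls lost were those of *Adam15* in 8 alternatives, *Adamts19* in 7, *Adamts7* in 6, *Mmp14* in 4, *Adam23* in 2 and *Adamts3* and *Adamts10* in 1 each. The upper-quartile factors, DESeq2 and the thinned libraries gave 9 of these, with adjusted p of 0.0524 to 0.113. Without a single library, *Adam15* had an adjusted p of 0.0519 to 0.117 (each library but WT c), *Adamts19* of 0.0701 to 0.219 (WT a, WT b, KO a or KO c), *Adamts7* of 0.0518 to 0.143 (WT a, WT b, KO a or KO b), *Mmp14* of 0.0554 to 0.0807 (WT b, KO a or KO c), *Adam23* of 0.0624 (WT b) and 0.0888 (KO b), *Adamts3* of 0.0776 (KO a) and *Adamts10* of 0.0622 (WT a). Each such fit has fewer samples, or another scaling or test, and the cause was not tested further. The log2 fold changes that changed sign belonged to genes that were not called. Without 1 library at a time, that of *Mmp15* ran from -0.0136 to 0.0490 (negative without WT a or KO c), that of *Timp1* from -0.153 to 0.0422 (positive without WT c) and that of *Mmp23* from -0.101 to 0.00786 (positive without KO a). The related lists had 43 to 51 lower and 6 to 11 higher genes over all alternatives.

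No paired analysis was possible because nothing in the column names ties a library to a replicate number. Depth limits the scarce genes: *Timp4* and *Mmp12* rest on few counts, and the RPKM values rest on annotated exon lengths, not on the transcripts present in these hearts. With 3 libraries per genotype, a permutation test of a summed level cannot go below 0.1.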

Other observations

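Other membrane and secreted metalloproteases, which have zinc sites of their own but belong to none of the families above, were also measured. Of 13 in the table, 4 fell (30.8%) and 2 rose (15.4%) in KO hearts, against 15.7% and 14.6% of all genes, and the median log2 fold change was -0.10. *Ace*, the angiotensin-converting enzyme, was at 12.7 CPM in WT against 7.33 CPM in KO (-0.79, adjusted p = 9.83e-06), and *Cpm*, a membrane carboxypeptidase, at 4.65 and 2.95 CPM (-0.66, adjusted p = 0.0032). *Anpep*, an aminopeptidase, was at -0.30 (adjusted p = 0.0159). *Mme*, neprilysin, which degrades natriuretic peptides, was higher at 5.89 CPM against 4.09 CPM (0.53, adjusted p = 0.009), and *Enpep*, the aminopeptidase that trims angiotensin, was at 0.32 (adjusted p = 0.0084).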
